A study of Schizosaccharomyces pombe with 10 samples.

Results

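The centromeres of the 3 fission yeast (Schizosaccharomyces pombe) chromosomes were described through 889 windows of a chromatin immunoprecipitation sequencing (ChIP-seq) table. A window was taken when it lay wholly inside I:3753601-3787300, II:1602601-1641700 or III:1091301-1107700, coordinates of the ASM294v2 build. These spans held 336, 390 and 163 windows, of 126317 windows in all, or 0.704% of the table. No measured value entered the choice. The table itself names 49 genes there, 23 tRNA genes and 26 non-coding RNAs, and all 49 were found in the annotation with a labelled window on the gene.

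The libraries address whether Myo1, the class I myosin of fission yeast, associates with chromatin, in control medium or in low phosphate. Myo1-GFP libraries came from cells whose Myo1 carried green fluorescent protein, 3 from YES, the rich medium with high phosphate, and 3 from YES LowPi, where phosphate is low. NoIP libraries came from a strain the labels call wild type, 2 in each medium. Growth lasted 4 h at 30°C before cells were adjusted to 0.5 OD per ml and were fixed for 30 min in 3% formaldehyde. The labels give the same volume of GFP-binding beads, 40 µl, for every library, so whether NoIP was a pulldown from untagged cells or chromatin without a pulldown is not given. Nothing states whether replicates were separate cultures, and p-values then measure only the spread between these libraries.

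A fission yeast centromere has a central core, on which the histone H3 variant CENP-A (Cnp1) marks the site of the kinetochore. The core is flanked by inner repeats and then by outer repeats, which carry heterochromatin with methylated histone H3 and are transcribed into non-coding RNAs that feed RNA interference. tRNA genes, transcribed by RNA polymerase III, stand in and beside the inner repeats and are known as borders between these kinds of chromatin.

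The annotation used here does not mark the elements, so they were placed by aligning each span with itself. The central core is what lies inside the innermost pair of inverted repeats. It measured 4118 bp in centromere I (I:3769078-3773195), 6803 bp in II (II:1620807-1627609) and 4853 bp in III (III:1097071-1101923). The inverted pairs were 99.681%, 99.758% and 99.965% identical, and the inner repeats were taken as their part next to the core. In II that part was the whole pair. Windows overlapping a tRNA gene formed a class of their own, which left 155 core, 216 inner repeat and 462 outer repeat windows beside 56 tRNA windows. Centromere III contributed only 18 outer repeat windows, because its span ends close to the inner repeats.

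How far a read can be placed differs between elements, so the sequences at both ends of the profile are shown first. They are the window with the highest and the one with the lowest mean level of each centromere, from the plus strand of the RefSeq reference (ASM294v3, whose 3 chromosomes have the same lengths as in the table). Capitals mark a tRNA gene, or in the lowest windows of I and III the 184 bases that both hold.
Centromere I highest, outer repeat, I:3779001-3779200: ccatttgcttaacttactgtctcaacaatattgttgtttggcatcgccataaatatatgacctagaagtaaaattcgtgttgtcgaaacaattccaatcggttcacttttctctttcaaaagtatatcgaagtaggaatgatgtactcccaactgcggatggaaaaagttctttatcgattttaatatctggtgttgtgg
Centromere I lowest, core, I:3771901-3772100: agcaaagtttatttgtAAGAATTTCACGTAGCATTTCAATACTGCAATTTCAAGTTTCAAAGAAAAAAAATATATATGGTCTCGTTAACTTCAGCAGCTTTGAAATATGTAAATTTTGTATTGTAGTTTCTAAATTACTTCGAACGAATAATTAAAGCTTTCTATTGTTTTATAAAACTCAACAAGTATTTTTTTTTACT
Centromere II highest, SPBTRNAILE.07, II:1630001-1630200: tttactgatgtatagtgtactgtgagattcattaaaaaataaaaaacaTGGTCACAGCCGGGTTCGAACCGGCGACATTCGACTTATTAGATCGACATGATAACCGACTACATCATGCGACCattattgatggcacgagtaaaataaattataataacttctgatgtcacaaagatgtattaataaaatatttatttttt
Centromere II lowest, core, II:1623301-1623500: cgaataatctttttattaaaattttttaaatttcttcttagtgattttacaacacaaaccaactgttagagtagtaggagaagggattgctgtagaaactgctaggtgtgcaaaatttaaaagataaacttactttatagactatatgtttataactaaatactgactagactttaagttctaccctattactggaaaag
Centromere III highest, SPCTRNAASP.06, III:1092401-1092600: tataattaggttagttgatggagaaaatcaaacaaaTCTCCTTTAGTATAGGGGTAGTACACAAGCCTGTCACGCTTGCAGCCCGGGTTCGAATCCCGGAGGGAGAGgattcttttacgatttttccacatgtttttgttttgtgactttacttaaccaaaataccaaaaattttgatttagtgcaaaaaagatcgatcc
Centromere III lowest, core, III:1101301-1101500: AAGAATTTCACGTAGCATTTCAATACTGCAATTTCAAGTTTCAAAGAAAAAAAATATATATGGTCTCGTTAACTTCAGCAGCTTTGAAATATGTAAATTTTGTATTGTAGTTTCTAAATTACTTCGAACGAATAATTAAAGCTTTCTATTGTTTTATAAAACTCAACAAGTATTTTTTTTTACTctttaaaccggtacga
The lowest windows owe their rank to 1 shallow library that lists them at 0, Myo1-GFP low phosphate replicate 3 for I and III and Myo1-GFP high phosphate replicate 3 for II. In the other 9 libraries, on the log2 scale defined below, they lay between -1.09 and -0.26 in I, between -2.54 and -0.80 in II and between -1.16 and -0.35 in III. The windows of I and III are nearly one sequence, part of a block of 3308 bp that the core of I shares at 99.788% identity with III, where it runs past the core's right end. A 50-base read from the identical stretches of that block cannot be assigned to one of the 2 centromeres. Of the 50-base words in a window, on average 99.6% occurred once in the reference in the core of II, 23.6% in the core of I and 37.9% in the core of III. In the inner repeats 2.23% did, in the outer repeats 4.49%, and in windows outside the spans 96.5%. The windows were also AT-rich: mean GC content was 28.4% in the core, 28.1% in the inner repeats and 32.7% in the outer repeats, against 36.1% outside.

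Depth differed 30.8-fold between libraries. The deposited signal moves in whole steps, and if 1 step is 1 read, the libraries held 1.42 M to 43.8 M reads summed over the overlapping windows. The shallow libraries were Myo1-GFP high phosphate replicate 3 (1.42 M) and Myo1-GFP low phosphate replicate 3 (1.80 M), and the other 8 held at least 10.8 M. A median core window then rested on 4 reads in each shallow library and on 31 to 167 in the others. Only the shallow libraries had centromere windows at 0, 5 and 15 of them, all in the core. For most libraries it could not be established that a step is a read.

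The centromeres took between 0.715% and 1.60% of a library's signal. Levels are given below as log2 signal relative to the median window of the same library, so 0 is a typical window of the genome. The profile had one shape in every library, NoIP included: low in the central core, intermediate in the inner repeats, high in the outer repeats, and with narrow peaks at the tRNA genes. How near the inner repeats came to the genome's median depended on where their border was set.

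**Figure D1:**
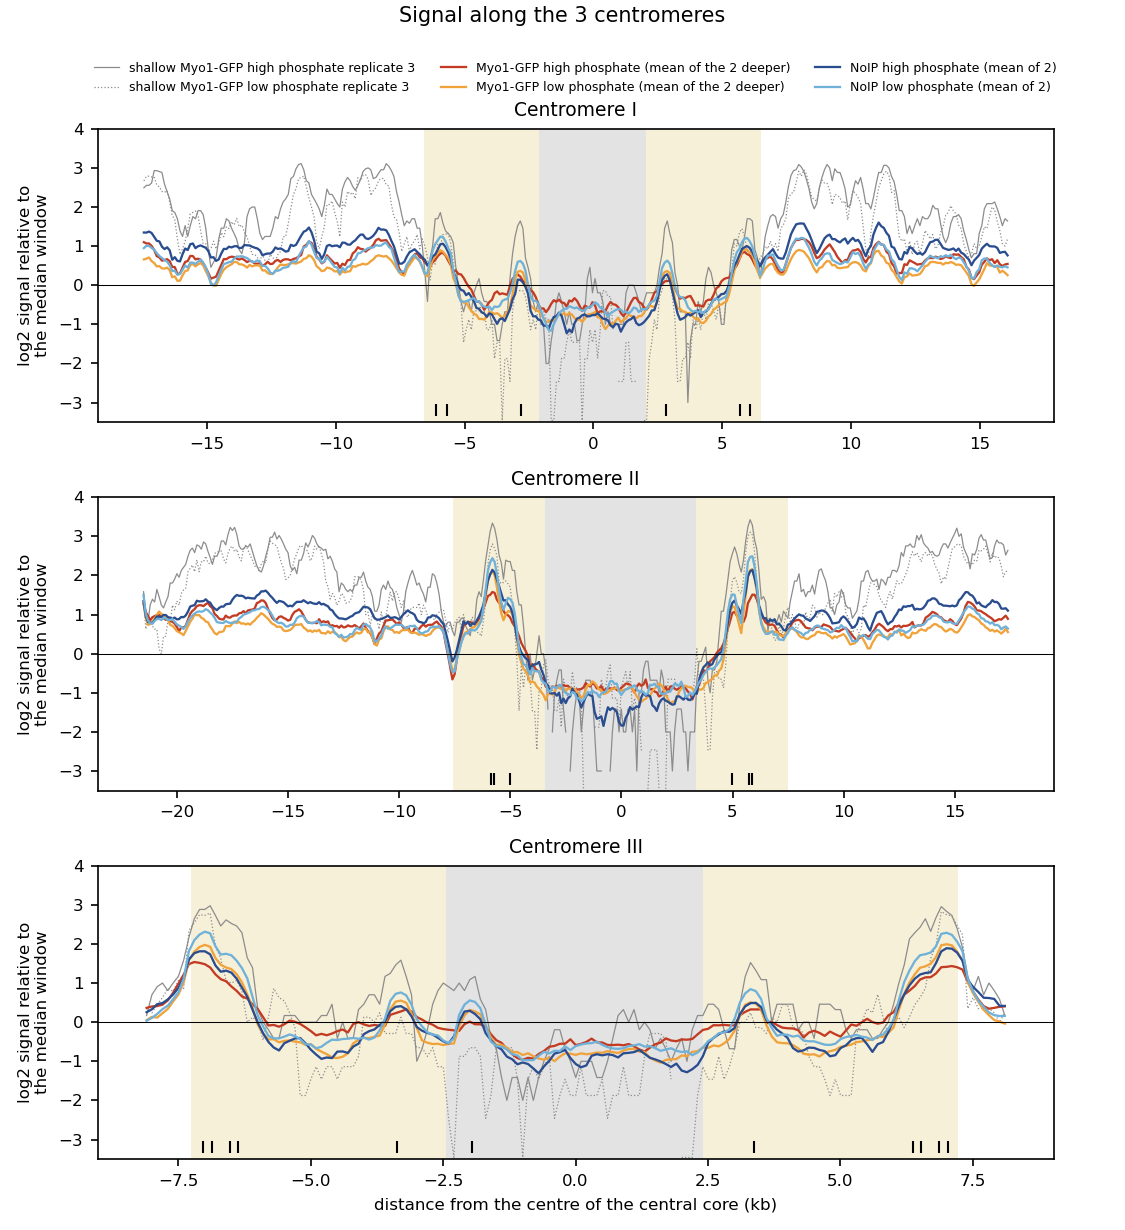
Log2 signal relative to the median window (vertical axis) against distance from the centre of the central core in kb, for centromeres I, II and III. Coloured lines are means of the 2 deeper libraries of each group, grey lines the 2 shallow Myo1-GFP libraries (windows at 0 left out), grey shading the core, yellow shading the inner repeats and ticks the tRNA genes. All lines fall into the core and rise over the repeats, with peaks at the ticks.

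In the central core, where CENP-A chromatin lies, the mean level was -0.55, -0.82 and -1.40 in the 3 Myo1-GFP libraries of high phosphate. It was -0.89, -0.84 and -2.65 in those of low phosphate. NoIP gave -1.07 and -1.04 in high phosphate, and -0.70 and -0.86 in low phosphate. Every library was below 0, and with both media pooled the NoIP values lay within the range of the Myo1-GFP values. In high phosphate only the shallow Myo1-GFP library, at -1.40, was below NoIP. In low phosphate the NoIP library at -0.70 was above all 3 Myo1-GFP libraries. The group means were -0.92 ± 0.43 (SD, n = 3) and -1.46 ± 1.03 (SD, n = 3) for Myo1-GFP in high and low phosphate. NoIP had group means of -1.05 ± 0.02 (SD, n = 2) and -0.78 ± 0.11 (SD, n = 2). On a linear scale the mean core window held 0.371 to 0.695 times the signal of the median window. The lowest value, -2.65, belongs to the library with 15 core windows at 0, where the pseudocount of 1 weighs heavily. By the log2 of the mean signal that library stood at -1.43.

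The core was low throughout. Of its 155 windows, 1 had a mean over the 10 libraries above 0. The core of II was the lowest, with a mean level under those of I and III in 10 of 10 libraries, by a median of 0.29 and 0.35. By the log2 of mean signal this held in 9 of 10, the exception being the shallow Myo1-GFP low phosphate library. The core of II is the one with unique sequence. The 90 core windows of which at least 90% of 50-base words were unique ranged from -0.71 to -3.12 over the libraries.

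Low GC content went with the core, and its level was therefore set beside other windows of like composition. Windows outside the spans with GC content between the quartiles of the core (26.25% to 30%) had mean levels from -0.18 to 0.21. The core was below them in 10 of 10 libraries, by a median of 1.05 (0.55 to 2.47). Whether nucleosome content, mappability or another property goes with this difference was not tested.

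In the outer repeats, the heterochromatic part, the mean level was 1.03, 0.48 and 2.05 in Myo1-GFP of high phosphate. It was 0.42, 0.66 and 1.69 in Myo1-GFP of low phosphate. NoIP gave 1.63 and 0.45 in high phosphate, and 0.91 and 0.45 in low phosphate. All 10 libraries were above 0, all 4 groups overlapped, and the highest value of each Myo1-GFP group was its shallow library. Of the 462 outer windows, 461 had a mean level above 0. Outer repeats exceeded the core of their library by a median of 1.54 (1.30 to 4.34) and the inner repeats by a median of 0.74 (0.54 to 1.997). Both orders held in 10 of 10 libraries in each of the 3 centromeres taken alone.

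**Figure D2:**
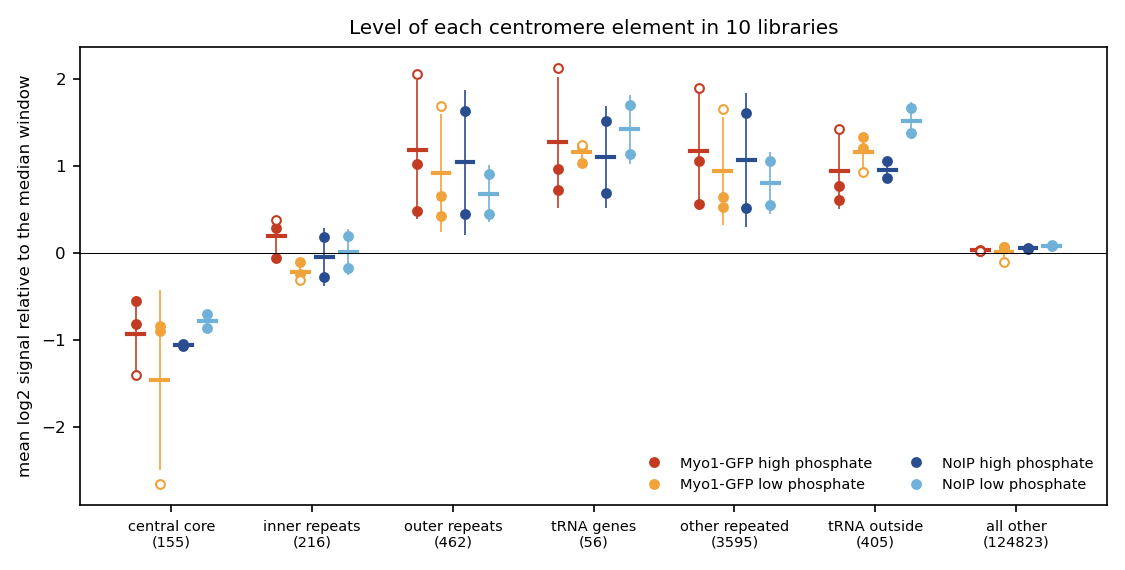
Mean log2 signal relative to the median window for the 4 centromere elements and 3 sets of windows elsewhere, with the number of windows in parentheses. Each point is a library, open points are the shallow libraries, bars are group means and vertical lines SDs. The core lies below 0 and the outer repeats and tRNA genes above 0 in every library, in NoIP as in Myo1-GFP.

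The level of the outer repeats fell with depth. Of the 45 pairs of libraries, the deeper one had the lower outer repeat level in 44. It did so in 45 of 45 pairs in centromere II and in 44 in centromere I, but in 38 in centromere III. Windows outside the spans of which under 10% of 50-base words were unique numbered 3595. Any centromeric repeats beyond the ends of the spans would be among them. These repeated windows gave the same picture: the deeper library was lower in 43 of 45 pairs. Their mean level was 1.05, 0.56 and 1.90 in Myo1-GFP of high phosphate and 0.54, 0.64 and 1.65 in low phosphate. It was 1.61 and 0.52 in NoIP of high phosphate and 1.05 and 0.56 in low phosphate, and the outer repeats differed from it by -0.14 to 0.15 within a library. In the core the deeper library was lower in only 20 of 45 pairs. The libraries' depth and the height of their outer repeats cannot be told apart.

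**Figure D3:**
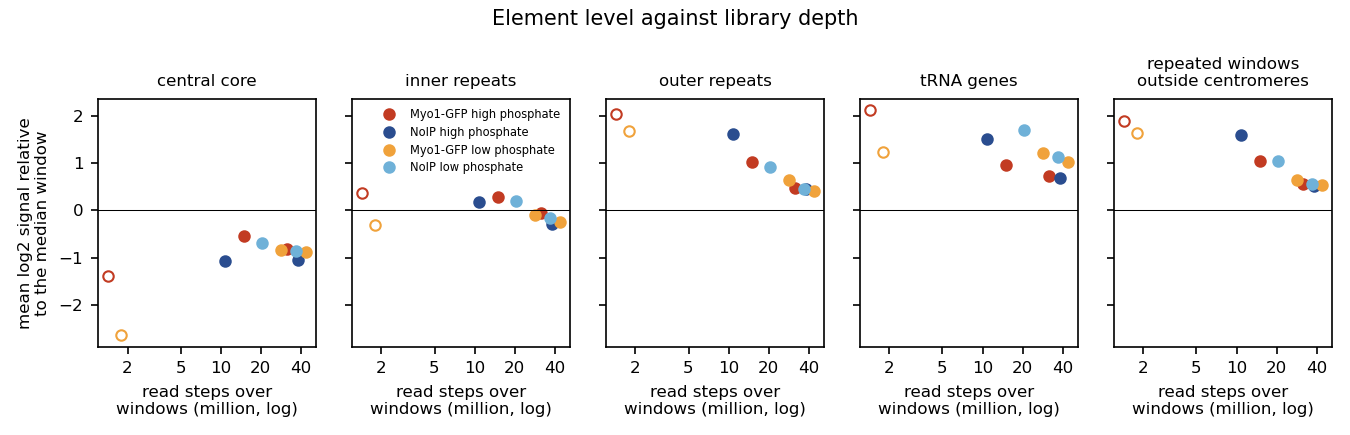
Mean log2 signal relative to the median window against depth (read steps summed over windows, in M, log axis) for the 4 elements and for repeated windows elsewhere. Points are libraries and open points the shallow ones. The outer repeats descend from 2.05 at 1.42 M to 0.42 at 43.8 M, and the repeated windows outside the spans follow them.

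The inner repeats lay between. Their mean level was 0.29, -0.06 and 0.38 in Myo1-GFP of high phosphate, and -0.24, -0.10 and -0.31 in low phosphate. NoIP gave 0.19 and -0.28 in high phosphate, and 0.20 and -0.17 in low phosphate. The 3 Myo1-GFP libraries of low phosphate were below the 3 of high phosphate, while the NoIP values of both media overlapped. Inner repeats exceeded the core by a median of 0.80 (0.65 to 2.34), in 10 of 10 libraries. Those of centromere II, as placed here, were higher than those of I by a median of 0.57 and than those of III by 0.49, each in 10 of 10 libraries. They are the whole inverted pair in II but only its part next to the core in I and III. The centromeres were not compared with whole pairs in all 3. Within the inner repeats levels were uneven, with 80 of 216 windows above 0. The left and the right copy, which share nearly all their sequence, had signal ratios from 0.913 to 1.07 over the 3 centromeres and 10 libraries.

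The 26 non-coding RNAs followed the element they lie in. All 16 in the outer repeats were above 0, from 0.44 for SPNCRNA.485 to 1.37 for SPNCRNA.360. The 3 in the core were below 0, SPNCRNA.233 of centromere I at -0.90, SPNCRNA.369 of II at -1.13 and SPNCRNA.370 of II at -1.48. Of the 7 in the inner repeats, 5 were above 0, with a range from -0.51 to 0.83.

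Peaks stood at the tRNA genes. Over their 56 windows the mean level was 0.96, 0.72 and 2.13 in Myo1-GFP of high phosphate, and 1.03, 1.22 and 1.25 in low phosphate. NoIP gave 1.52 and 0.69 in high phosphate, and 1.70 and 1.14 in low phosphate. The groups overlapped. tRNA windows were higher than the inner repeats around them in 10 of 10 libraries, by a median of 1.32 (0.68 to 1.75), and higher than the outer repeats in 7 of 10.

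tRNA genes elsewhere in the genome were read the same way, with no test of the difference. The centromeric windows were higher than the 405 tRNA windows outside the spans in 5 of 10 libraries, with a median difference of -0.01 (-0.23 to 0.70), and in 7 of 10 by the log2 of mean signal, with a median of 0.10. The class is a mixture: group means ran from 0.64 to 0.89 in centromere I and from 1.70 to 1.96 in II, against 0.94 to 1.52 outside. All 23 centromeric genes and all 148 outside had a mean level above 0, with medians of 1.29 and 1.09. The sequences were shared as well: the 23 genes have only 8 distinct sequences, and none of the 8 is found in the spans alone. These 4 occur in more than one centromere, and capitals mark the B box, an internal promoter element of RNA polymerase III genes, where its first letters, GGTTCGA, were found.
tRNA-Ala, SPATRNAALA.04, I:3765008-3765081, minus strand: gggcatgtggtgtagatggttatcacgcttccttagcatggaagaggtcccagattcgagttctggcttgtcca
tRNA-Glu, SPATRNAGLU.03, I:3765434-3765505, minus strand: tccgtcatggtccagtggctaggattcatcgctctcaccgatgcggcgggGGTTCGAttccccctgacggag
tRNA-Ile, SPATRNAILE.03, I:3768290-3768363, plus strand: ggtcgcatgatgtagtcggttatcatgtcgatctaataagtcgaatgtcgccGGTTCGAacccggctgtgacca
tRNA-Val, SPBTRNAVAL.06, II:1619174-1619256, minus strand: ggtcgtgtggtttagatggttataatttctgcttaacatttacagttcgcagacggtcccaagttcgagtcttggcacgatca
These letters, searched on the gene's own strand, were in 13 of the 23 genes (56.5%) and in 83 of the 148 elsewhere (56.1%). A gene without them, such as tRNA-Ala or tRNA-Val above, is only one in which these exact letters do not occur.

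Windows at one gene sequence gave different levels at different places. Each value is a mean over the 2 or 3 windows of 200 bp that overlap the gene, and so includes bases beside it. tRNA-Ala reached a mean level over the 10 libraries of 0.94 for SPATRNAALA.04 and 0.98 for SPATRNAALA.05 in centromere I, against 2.14 for SPBTRNAALA.09 and 2.21 for SPBTRNAALA.10 in II. tRNA-Ile stood at 0.39 for SPATRNAILE.03 and 0.44 for SPATRNAILE.04 in I, and at 2.13 for SPBTRNAILE.06 and 2.21 for SPBTRNAILE.07 in II. In centromere II the Ile and Ala genes lie so near each other that one window overlaps both, while in I they lie apart. tRNA-Val gave close values at its 4 places, 1.29 for SPBTRNAVAL.06, 1.40 for SPBTRNAVAL.07, 1.39 for SPCTRNAVAL.09 and 1.36 for SPCTRNAVAL.10. tRNA-Glu was at 0.88 for SPATRNAGLU.03 and 0.85 for SPATRNAGLU.04 in I, but at 0.23 for SPCTRNAGLU.10, which lies inside the core of III. SPCTRNAGLU.10 was the lowest of the 23, with library values from -0.73 to 1.02 and a median of 0.23, while the core windows of III averaged below 0 in every library.

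The outermost tRNA genes of centromere III were high, at 2.06 for both SPCTRNAASP.06 and SPCTRNAASP.07, 1.95 for SPCTRNAARG.12 and 1.90 for SPCTRNAARG.13. SPCTRNATHR.08 and SPCTRNATHR.09 followed at 1.26 and 1.22, and SPCTRNALEU.12 and SPCTRNALEU.13, nearer to the core, stood at 0.48 and 0.52. As a class, tRNA windows of II were higher than those of I by a median of 1.07 and those of III higher than those of I by 0.44, both in 10 of 10 libraries.

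**Figure D4:**
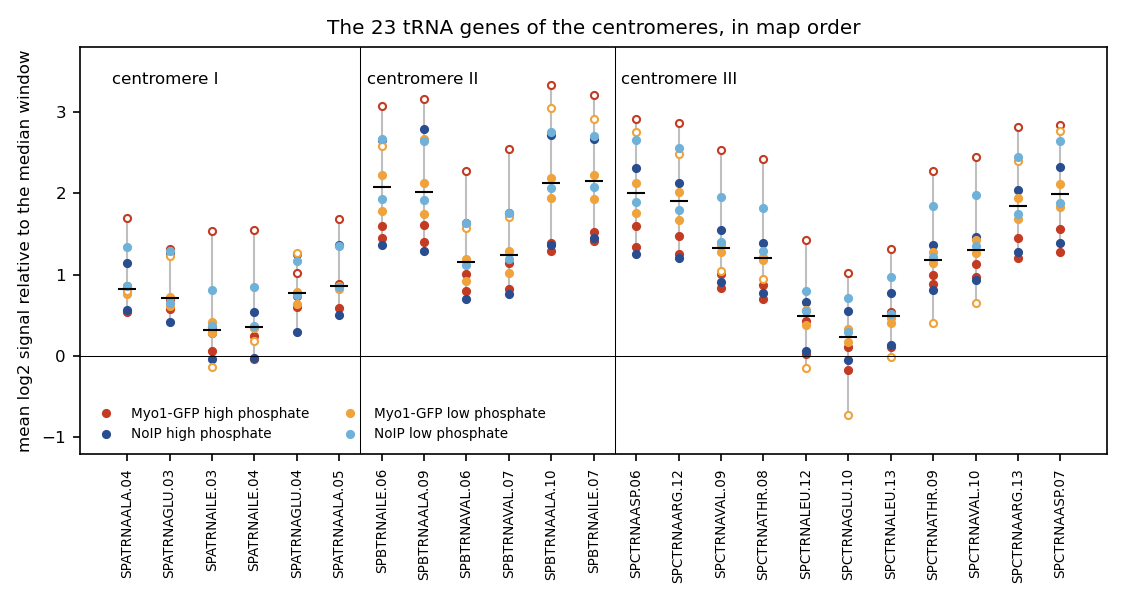
Mean log2 signal relative to the median window at each of the 23 centromeric tRNA genes in map order, by centromere. Points are the 10 libraries (open for the shallow ones), black dashes the medians and grey lines the range. SPBTRNAALA.10 and SPBTRNAILE.07 of II reach mean levels of 2.21, and SPCTRNAGLU.10 in the core of III has the lowest, 0.23.

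Whether tagged Myo1 gave more centromere signal than the background was asked in each medium. No centromere window passed the test. With limma, fitted over 126242 windows and adjusted by Benjamini-Hochberg over all of them, 0 of the 889 were called for the high phosphate libraries (0% of all windows). For those of low phosphate 0 were called as well (0% of all windows), and 0 with the media together (0% of all windows). At an unadjusted p under 0.05, limma gave 15 of 889 windows in high phosphate, all higher in Myo1-GFP, against 1.2% of all windows. It gave 2 in low phosphate, both lower (0.122% of all), and 0 with the media together (0.928% of all). In each comparison such a p was rarer over all windows than it would be with no difference anywhere. The 0 calls therefore do not show that Myo1 gave no signal at the centromeres. The median change of the centromere windows was 0.18 for high phosphate, 0.05 for low phosphate and 0.07 together, beside 0.00, -0.04 and -0.03 for all windows. The sign of all 3 turned without the shallow libraries, to -0.17, -0.17 and -0.16. With the replicate block they were -0.12, -0.20 and -0.16, and with array weights -0.16, -0.16 and -0.15. Leaving out 1 library at a time moved them from -0.31 to 0.60, from -0.17 to 0.22 and from -0.11 to 0.29.

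Windows in which the libraries of Myo1-GFP and NoIP did not overlap lay mostly in the core and the inner repeats, with Myo1-GFP higher in one medium and lower in the other. In high phosphate all 3 Myo1-GFP libraries were above both NoIP libraries in 94 of 889 windows (10.6%), where 7.68% of all windows did so. These were 42 of 155 core and 52 of 216 inner repeat windows, but 0 of 462 outer and 0 of 56 tRNA windows. The opposite order was found in 0 of 889 (9.41% of all windows). In low phosphate all 3 were below both NoIP libraries in 99 of 889 windows (11.1%), near the 11.9% of all windows that did so. These were 29 core, 59 inner repeat and 11 tRNA windows and 0 outer windows. All 3 Myo1-GFP libraries were above both of NoIP in 4 of 889, each in the core (7.5% of all windows). The mean inner repeat level of Myo1-GFP minus NoIP was 0.25 in high phosphate and -0.23 in low phosphate, and that of the core 0.13 and -0.68. Without the 2 shallow libraries the inner repeats stood at 0.16 and -0.18, and the core at 0.37 and -0.08. The neighbouring windows overlap and share sequence with their mirror copies, so these counts are not of independent windows.

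For the outer repeats the sign of Myo1-GFP minus NoIP rested on the shallow libraries. It was 0.15 in high phosphate and 0.24 in low phosphate with all libraries, and -0.29 and -0.14 without both replicates 3 of Myo1-GFP. The tRNA windows were at 0.17 and -0.26, and at -0.26 and -0.30 without those libraries.

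**Figure D5:**
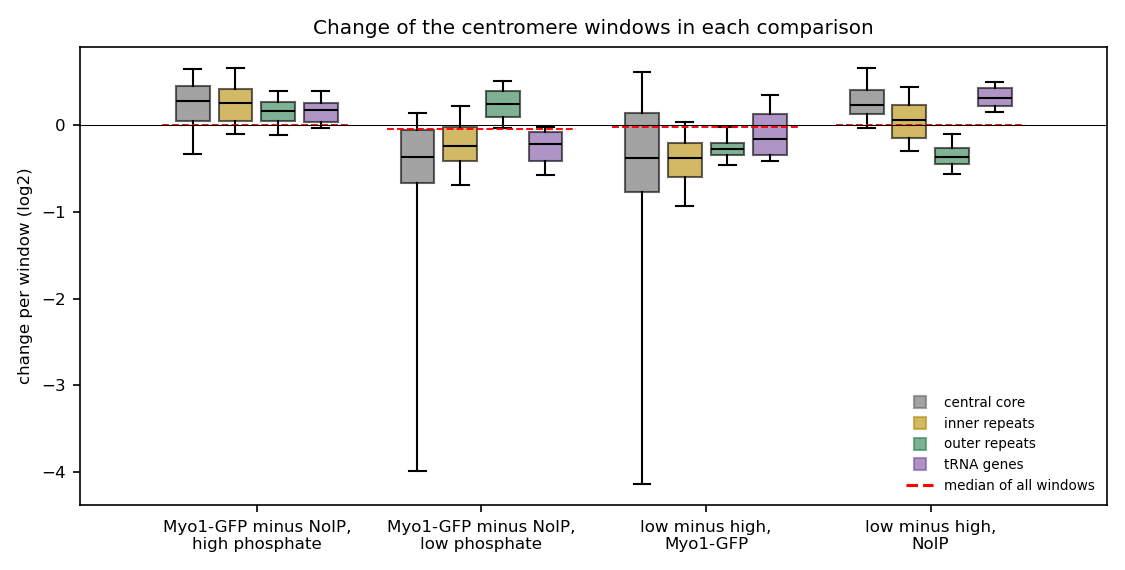
Change per centromere window on the log2 scale (vertical axis) in 4 comparisons, as boxes of the quartiles with the median and whiskers from the 5th to the 95th percentile, for each element. Red dashes are the median of all windows. The inner repeat boxes lie mostly above 0 for Myo1-GFP minus NoIP in high phosphate and mostly below it in low phosphate, and the core whiskers reach furthest down in the comparisons that hold the low phosphate Myo1-GFP libraries.

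Phosphate was compared within each kind of library. In Myo1-GFP, 0 of 889 centromere windows were called for low minus high phosphate by limma, where 22 windows of all were (0.0174%), with a higher level after phosphate limitation in each. Taking limma's unadjusted p under 0.05, 57 centromere windows were found, all lower in low phosphate, against 7.99% of all windows in either direction. They were 45 inner repeat and 12 core windows. In NoIP 0 were called (0% of all), and 0 had an unadjusted p under 0.05 by limma (4.58% of all). The interaction between medium and tagging called 0 (0% of all), with 25 windows at an unadjusted p under 0.05, all negative (0.322% of all).

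In Myo1-GFP the inner repeats held most of the windows that separated the media. All 3 Myo1-GFP libraries of low phosphate were below the 3 of high phosphate in 104 of 889 windows (11.7%), while 7.35% of all windows did so. These were 74 of 216 inner repeat windows, 29 of 155 core windows, 1 of 462 outer windows and 0 of 56 tRNA windows. The opposite order was found in 0 of 889 (7.38% of all windows). The inner repeats' mean level changed by -0.42, and by -0.29 without the shallow libraries. In NoIP both low phosphate libraries were above both of high phosphate in 113 of 889 windows (12.7%), fewer than the 24% of all windows that did so. These were 74 core, 36 inner repeat, 3 tRNA and 0 outer windows. Both low phosphate libraries were below in 2 of 889 (21.8% of all windows). The mean core level changed by 0.28 in NoIP and by -0.54 in Myo1-GFP, the latter becoming -0.18 without the shallow libraries and 0.06 without Myo1-GFP low phosphate replicate 3 alone. All 56 tRNA windows were higher in NoIP of low phosphate by the group means, by 0.11 to 0.54. The mean change of the class was 0.32, but -0.10 without NoIP high phosphate replicate 2, 0.04 without NoIP low phosphate replicate 1 and 0.73 without NoIP high phosphate replicate 1. tRNA windows outside the spans had a median change of 0.56, against 0.31 for those inside, and 0 of the 405 were called by limma (0% of all windows).

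For low minus high phosphate in Myo1-GFP and for the interaction, the windows with the smallest p lay in one stretch of the left inner repeat of centromere III. In the window of 200 bases that ends at base 1095000 of chromosome III, the level was -0.15, -0.43 and 0.46 in Myo1-GFP of high phosphate and -0.88, -0.92 and -1.14 in low phosphate. NoIP gave -0.91 and -0.92 in high phosphate, and -0.28 and -0.61 in low phosphate. Myo1-GFP thus fell without overlap in low phosphate, and NoIP rose without overlap, between libraries with 5 to 170 reads if 1 step is 1 read. The change in Myo1-GFP was -0.94 ± 0.25 (SE) with a limma adjusted p of 0.319, and the interaction was -1.41 ± 0.40 (SE) with a limma adjusted p of 1. The adjoining window III:1095001-1095200 changed by -0.84 ± 0.21 (SE), with a limma adjusted p of 0.261, the smallest of the 889. With limma's array weights the adjusted p of the 2 windows was 0.00731 and 0.00285, and over all alternatives it ranged up to 0.598 and 0.610.

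That stretch has a near-identical mirror copy in the right inner repeat. The window there that covers 193 of the 200 bases, III:1104001-1104200, read -0.04, -0.50 and 0.46 in Myo1-GFP of high phosphate and -0.91, -0.84 and -1.14 in low phosphate. Its NoIP levels were -0.68 and -0.74 in high phosphate, and -0.31 and -0.76 in low phosphate, which overlap. As no 50-base word of the named window is unique, a 50-base read within it cannot be assigned to one of the 2 copies. The copies are therefore not taken as separate observations. The labels give 50 or 100 bases as the read length, and the placement of longer or paired reads was not examined.

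At the right edge of the core, which ends inside it, the window III:1101801-1102000 had the second smallest p of Myo1-GFP minus NoIP in high phosphate. It stood at 0.05, -0.45 and 0.17 in Myo1-GFP and at -0.83 and -0.91 in NoIP, a difference of 0.80 ± 0.27 (SE) with a limma adjusted p of 1.0. In low phosphate it stood at -0.67, -0.61 and -1.14 in Myo1-GFP and at -0.60 and -0.70 in NoIP, and these groups overlap. For low minus high phosphate in NoIP the smallest p belonged to II:1623901-1624100, a unique window of the core. Its NoIP levels were -1.83 and -1.15 in high phosphate and -0.68 and -0.84 in low phosphate, a change of 0.73 ± 0.33 (SE) with a limma adjusted p of 1.

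Genes for proteins that build the centromere lie elsewhere and were read out as a list. The 14 genes, among them cnp1 (CENP-A), swi6 (the heterochromatin protein that binds methylated histone H3) and clr4 (the methyltransferase that makes the mark), had mean levels from -0.35 for cnp20 to 0.11 for swi6. None of their 316 windows was called in any of the 6 contrasts by limma, and the contrast with the most at an unadjusted p under 0.05 was low minus high phosphate in Myo1-GFP, with 5 higher and 6 lower, where 7.99% of all windows had such a p.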

How the data were processed

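The authors deposited 1 table of window signal for 10 libraries, with windows of 200 bp placed every 100 bp. Per the labels, Trim Galore 0.3.8 and Bowtie2 2.2.4 were used on the ASM294v2 build, while the study's methods name TopHat and SeqMonk. Filters on duplicates and mapping quality, and the factor scaling each library, are not given in the sources used here. Reads in repeats may be placed at random or dropped, and the table does not show which.

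Windows whose deposited signal exceeded 0 in 2 or more libraries entered the fit (126242, with all 889 centromere windows), with values transformed as log2(signal + 1) and centred on each library's median window. Changes are on this scale, on which a window at 0 lies far below any window with signal, so that a change involving a 0 is large. limma 3.58.1 in R 4.3.3 (lmFit, eBayes with a trend, 1 mean per group, two-sided) was fitted over all windows. The threshold was a Benjamini-Hochberg adjusted p under 0.05. The same fit was also run on simulated signal with a common window profile for all libraries. That simulation held no change of repeat level with depth, so it does not check the fit for such windows. Element levels are means over windows and carry no test.

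Elements were placed with blastn 2.17.0 (Python 3.11.15, numpy 2.4.6, pandas 2.3.3, scipy 1.17.1, matplotlib 3.10.9). The planned definition took the whole innermost inverted pair as inner repeats. In I and III that pair ran into sequence shared with another centromere (blocks of at least 700 bp at 95% identity), so the inner repeats were ended there, after the alignment was seen. Named windows were the highest and lowest per centromere, the 2 with the smallest p per contrast and one known from earlier work on these data. Members and lists were chosen with earlier results of these data known. Alternatives were another pseudocount, filter, centring, weighting, GC correction, replicate block, bin size, restriction to unique windows and leaving out libraries. A count test was not run, because the values are scaled signal.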

Additional observations from a re-analysis of the deposited data

Results flagged for a closer look

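Of the 12 pairs of element and centromere, only the central core of centromere I had every library of low phosphate below every one of high phosphate in Myo1-GFP and the opposite, again without overlap, in NoIP. The group means had opposite signs in other pairs too, with overlapping libraries in Myo1-GFP or NoIP. In NoIP the separation was narrow: the higher library of high phosphate stood at -0.788 and the lower of low phosphate at -0.768. The change between group means was -0.83 in Myo1-GFP and 0.25 in NoIP. The difference of the changes was -1.07, and it was not tested. Read by medium, Myo1-GFP was above NoIP by 0.35 in high phosphate and differed from it by -0.73 in low phosphate, a difference of 1.07. Without the 2 shallow libraries the changes were -0.32 in Myo1-GFP and 0.25 in NoIP. Most of this core is a block shared with centromere III, whose core changed by -0.57 in Myo1-GFP and 0.24 in NoIP. There too the Myo1-GFP libraries separated by medium. The NoIP libraries overlapped narrowly, at -0.749 for the higher of high phosphate and -0.767 for the lower of low phosphate.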

How the results depend on the processing

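The order of core, inner repeats and outer repeats kept its direction under every alternative that could show it. Restriction to unique windows could not, as it left 0 inner repeat and 3 outer repeat windows. No call of a centromere window was made in 4 of the 6 contrasts under any alternative. How many of all windows were called there is not given, so this is not read as a result about the centromeres. For low minus high phosphate in Myo1-GFP, array weights called 17 windows, all lower (16 inner repeat and 1 core, 10189 of all windows), and the 8 deeper libraries called 1, III:1095001-1095200 (4966 of all 126241 windows). For low minus high phosphate in NoIP, the 8 deeper libraries called 4 core windows, all higher (7336 of all windows). In each of these fits a smaller share of the centromere windows was called than of all windows. The array weights of the shallow libraries were 0.112 and 0.0702. Quantile normalization moved the core difference of Myo1-GFP minus NoIP in high phosphate from 0.13 to 0.89.

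Leaving out 1 library at a time gave 0 called centromere windows in each contrast. The number of all windows called in these fits is not given, so no result about the centromeres is drawn from that count. With 1 library left out, the inner repeat difference ranged from 0.014 to 0.48 for Myo1-GFP minus NoIP in high phosphate. It was lowest without NoIP high phosphate replicate 2 and highest without NoIP high phosphate replicate 1. For low minus high phosphate in NoIP it ranged from -0.17 to 0.29. The planned definition took the whole inverted pair as inner repeats, and the border used above was set after the alignment was seen. With the whole pair their mean level was 0.42 (-0.01 as reported) and the tRNA windows exceeded them by 0.82 (1.25). The cause was not tested.

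Nothing states that replicate numbers pair the libraries. Deviations of same-numbered libraries had correlations of 0.07, 0.16 and 0.14 between the media in Myo1-GFP and 0.37 in NoIP. Over all 13 such pairs they ranged from -0.18 to 0.37. Differently numbered Myo1-GFP libraries had correlations from -0.17 to 0.18 between the media. In NoIP they had -0.37, a mirror image fixed by having 2 libraries per group. The replicate block turned the median change of Myo1-GFP minus NoIP in high phosphate from 0.18 to -0.12. With the replicate block 0 centromere windows were called in each contrast, and with the replicate block and GC correction 0 as well, while windows called in low minus high phosphate of Myo1-GFP rose from 22 to 40 and 44. The edgeR fit on whole reads was not run, since whole reads were not established. Levels without centring have no common zero and are not given. Unique windows existed in number only for the core, where the difference between Myo1-GFP and NoIP of high phosphate was -0.05 (0.35 in the 8 deeper libraries, 0.19 by the log2 of mean signal). Of 1542 values of the 13 named windows, 1538 stayed on their side of the threshold, and the other 4 passed it, 3 with array weights and 1 with the 8 deeper libraries. Depth limits the core most, at a median of 4 reads per window in the shallow libraries.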
